A study of Drosophila melanogaster with 9 samples.

Results

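In *aly* testes, 728 *Drosophila* genes that carry only a CG number as their symbol gave at most 6.25% of the control signal, a fall of 16-fold or more, and 201 of them were only 2 to 8-fold lower in *Nxt1* testes. These 201 genes are described here. They were chosen by their own signals: a gene was taken when its log2 signal in *aly* testes was at least 4 below control, and when its log2 signal in *Nxt1* testes was at least 1 but less than 3 below control. All 3 differences between the genotypes over these genes therefore follow from the choice, and they are given as a description without a test. The 201 genes were 27.6% of the 728, which were drawn from 5209 genes with a CG number and 11981 genes with a probe set of 1 gene symbol.

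Testis RNA of 3 genotypes was measured on 9 Affymetrix arrays, 3 per genotype. *Nxt1* testes were *w; Nxt1[z2-0488]/Nxt1[DG05102]* from flies raised at 25°C, *aly* testes were *aly[5] red[1] e[1]* from flies raised at 27°C, and control testes were *w; tinRNAi/+; bamGal4VP16/+* from flies raised at 29°C. The control flies thus carried an RNAi construct against *tin* together with a *bam*-driven Gal4 activator, which acts in early germ cells, and the labels call their testes normal. Testes were dissected by hand from males at most 1 day old and were pooled until enough had been collected. Nothing in the labels tells whether separate cultures were used for the 3 arrays of a genotype, and their spread may be technical. Genotype cannot be told apart from culture temperature. The arrays that *Nxt1* testes were compared with are described in the methods as existing data, so batch may also run with genotype. The *Nxt1* genotype keeps residual function, since z2-0488 is an allele with partial activity.

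In *Drosophila* males, primary spermatocytes transcribe most of the genes that later build the sperm, and they store many of these mRNAs for translation in spermatids. Transcription of these genes needs tMAC, a testis-specific complex related to the MuvB/dREAM complex, and *aly* encodes one of its subunits. Nxt1, also called p15, is the small partner of the mRNA export receptor that carries mRNA through the nuclear pore. In *aly* and in *Nxt1* mutants the spermatocytes arrest before the meiotic divisions and spermatids are not made. A whole testis of either mutant therefore lacks late stages that the control holds, and on these arrays fewer cells of a type and less RNA per cell cannot be told apart.

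The signals of the 201 genes were high in control testes, intermediate in *Nxt1* testes and low in *aly* testes. The median of their mean signals was 1170 in *Nxt1* testes (144 to 7100), 95.1 in *aly* testes (23.6 to 1342) and 5187 in control testes (709 to 24616). A signal here is the RMA intensity of the probe set on a linear scale, and a log2 difference is taken between the means of 3 log2 signals. The median log2 difference of *Nxt1* from control was -2.07, or 23.9% of the control signal. Over the same genes the median log2 difference of *aly* from control was -5.56, or 2.12% of control, and *Nxt1* exceeded *aly* by a median of 3.46 (11-fold, with log2 differences between 1.48 and 6.09). Over all 18769 probe sets the medians of these differences were -0.01 for *Nxt1* minus control, 0.21 for *aly* minus control and -0.18 for *Nxt1* minus *aly*.

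The 3 arrays of each genotype gave similar levels. The median signal of the 201 genes was 1250, 1184 and 1100 on the *Nxt1* arrays, 102, 102 and 85.2 on the *aly* arrays and 5104, 5174 and 5274 on the control arrays. The median over all probe sets of the mean signal of the 9 arrays was 140.8, and the mean signal lay below it for 0 of the 201 genes in *Nxt1* testes, for 144 in *aly* testes and for 0 in control testes. Each array's own median was lower, between 98.4 and 109, and against it 0 of the 201 genes lay below on every *Nxt1* array, 100, 96 and 117 on the *aly* arrays and 0 on every control array. About as many of the genes were thus above as below the middle probe set of an *aly* array.

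**Figure D1:**
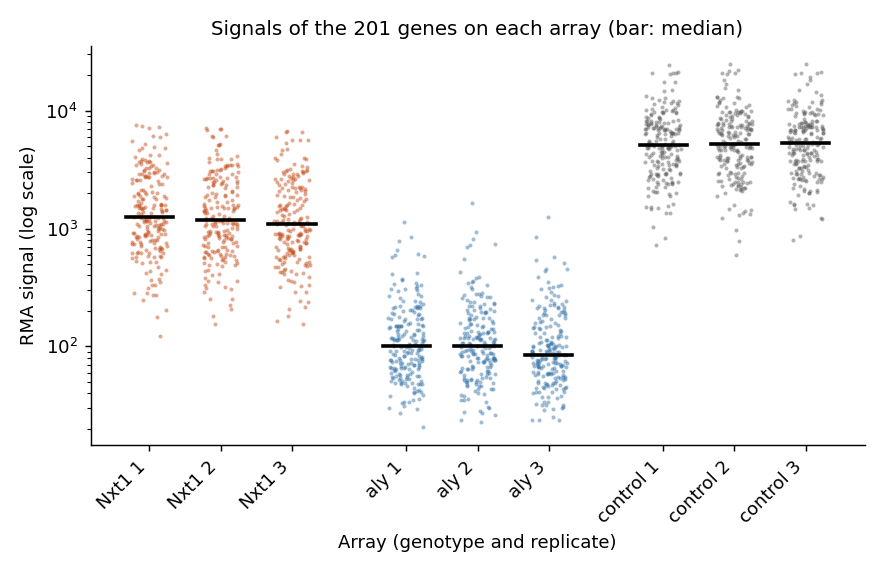
RMA signal (log axis) of each of the 201 genes on each of the 9 arrays, grouped as *Nxt1*, *aly* and control. Points are genes and bars are medians: the medians lie between 1100 and 1250 on *Nxt1* arrays, between 85.2 and 102 on *aly* arrays and between 5104 and 5274 on control arrays.

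Ranked among all probe sets, the 201 genes stood at a median percentile of 78.8 in *Nxt1* testes (53.3 to 97.2), 49.0 in *aly* testes (5.30 to 80.8) and 94.4 in control testes (74.5 at the lowest). Among the brightest 10% of probe sets were 31 of them in *Nxt1* testes, 0 in *aly* testes and 153 in control testes. Most of the 201 probe sets were thus among the brightest 10% in control testes. The choice favours such genes, since a 16-fold fall in *aly* testes needs a high control signal. Other CG genes 16-fold or more lower in *aly* testes were about as bright in control testes. Their median control signal was 4313 for the 313 genes at least 16-fold lower in *Nxt1* testes too. It was 4948 for the 119 genes 8 to 16-fold lower and 4826 for the 95 genes less than 2-fold lower, against 5187 for the 201. Signals of different probe sets also depend on their probes, so these ranks are not ranks of RNA amount.

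In limma, fitted to all probe sets, all 201 genes passed an adjusted p of 0.05 as lower in *Nxt1* than in control testes, where 24.2% of all probe sets did. All 201 were called lower in *aly* than in control testes, against 20.0% of all probe sets, and all 201 higher in *Nxt1* than in *aly* testes, against 20.6%. Every *Nxt1* array lay below every control array for each of the 201 genes, and for 32.1% of all probe sets. Every *aly* array lay below every control array for all 201, and for 20.8% of all probe sets, and every *Nxt1* array lay above every *aly* array for all 201, and for 22.0%. These counts follow from the limits that chose the genes, and nothing is read from them.

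The limits of 2-fold and 8-fold cut a continuous range. Between log2 differences of -5 and -0.5, each step of 0.5 in *Nxt1* minus control held 44 to 61 of the 728 genes, and the 4 steps inside the window held 55, 55, 47 and 44. The step just below the window held 61 genes and the step just above it held 52. The choice of genes rests on the scaling of the arrays: 80 of the 201 met the same limits with arrays centred on ribosomal protein probe sets, and 121 with arrays centred on *CG3927*, a spermatocyte gene that the study used as its control transcript. Among the rest of the 728, 313 had fallen at least 16-fold in *Nxt1* testes too, 119 were 8 to 16-fold lower, and 95 were less than 2-fold lower or not lower. Among genes that do have a name, 253 fell by this much in *aly* testes, and 73 of them (28.9%) fell in the same *Nxt1* window, a share close to the 27.6% among CG genes.

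**Figure D2:**
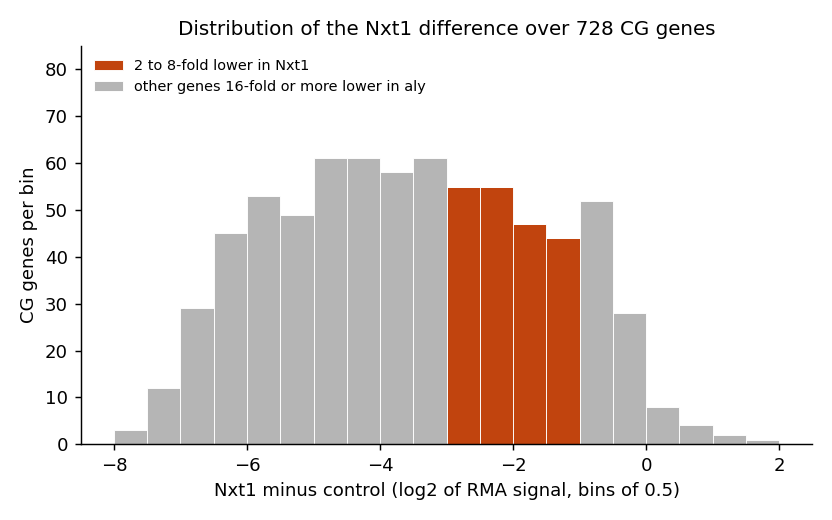
Number of CG genes (y axis) in steps of 0.5 of the log2 difference between *Nxt1* and control testes (x axis), over the 728 genes 16-fold or more lower in *aly* testes. The 4 coloured steps hold the 201 genes (55, 55, 47 and 44), and the neighbouring steps hold 61 and 52.

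**Figure D3:**
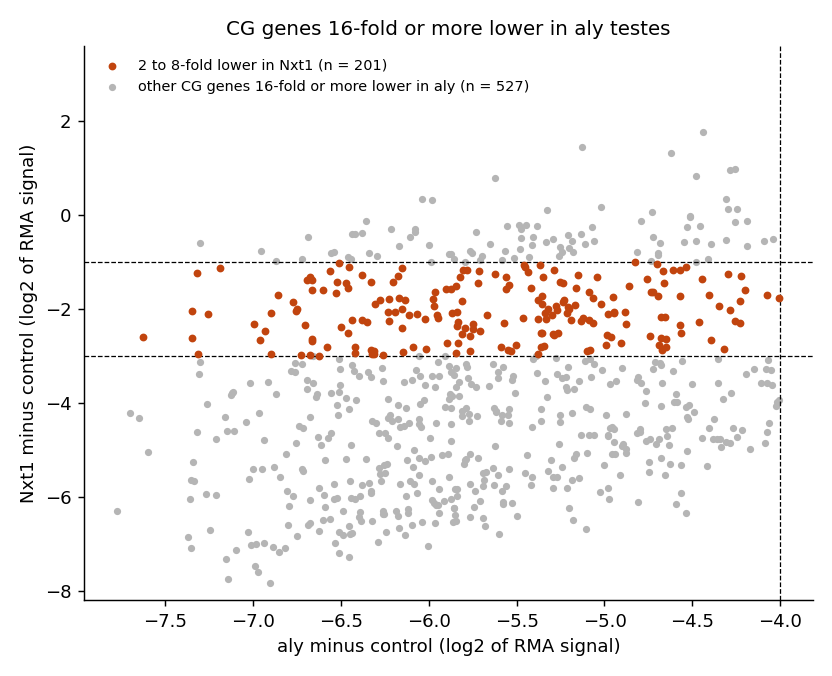
Log2 difference of *Nxt1* from control (y axis) against that of *aly* from control (x axis) for the 728 CG genes, each point a gene and dashed lines the limits of the choice. The 201 coloured genes lie between -7.63 and -4.01 on the *aly* axis.

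Genes close to a limit differed little from those across it. Just inside the 2-fold limit were *CG17717* (-1.01), *CG12617* (-1.02), *CG5280* (-1.04) and *CG33322* (-1.05), given as log2 differences of *Nxt1* from control. Just outside it were *CG33308* (-0.98), *CG14974* (-0.99), *CG31139* (-0.99) and *CG33287* (-0.99). At the 8-fold limit *CG31055* (7.95-fold lower in *Nxt1*), *CG5435* (7.88-fold), *CG13838* (7.87-fold) and *CG4983* (7.85-fold) were inside, and *CG13436* (8.01-fold), *CG6333* (8.04-fold), *CG10834* (8.04-fold) and *CG4714* (8.06-fold) outside. At the limit on *aly* minus control, *CG31639* (-4.01), *CG14693* (-4.07), *CG18130* (-4.20) and *CG7794* (-4.22) were inside, and *CG15547*, *CG8840*, *CG32461* and *CG5103* were outside, with log2 differences of -3.99, -3.99, -3.99 and -3.97. Standard errors in *Nxt1* minus control were 0.09 for *CG17717* and 0.12 for *CG31055*, larger than their distances from the limit.

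The falls in both mutants were set side by side. Both use the same control arrays, so they are a description. Grouped by *aly* minus control, the median log2 difference of *Nxt1* from control was -2.12 for the 7 genes between -8 and -7, -2.11 for the 61 genes between -7 and -6, -2.07 for the 85 genes between -6 and -5, and -2.04 for the 48 genes between -5 and -4. In the same order, the median log2 signal in control testes was 12.83, 12.67, 12.25 and 11.83. Genes with a deeper fall in *aly* testes were thus also brighter in control testes (Pearson's r = -0.30 between control level and *aly* minus control). The control level is part of that difference, so a negative r partly follows from how it is taken. Between the 2 falls Pearson's r was 0.11 over the 201 genes and 0.27 over the 728. Across the 201 genes the log2 levels in *Nxt1* and in control testes went together (Pearson's r = 0.87). Genes are not independent replicates, and the window of 4-fold width that chose them sets much of this.

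The window was also read in a deeper and a shallower part. The 110 genes that were 4 to 8-fold lower in *Nxt1* testes had median signals of 865 in *Nxt1*, 84.0 in *aly* and 4900 in control testes, and were a median of 53.8-fold lower in *aly* testes. The 91 genes that were 2 to 4-fold lower had median signals of 2350 in *Nxt1*, 109 in *aly* and 6349 in control testes, and were a median of 43.4-fold lower in *aly* testes.

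The brightest of these genes in control testes was *CG9016*. Its signal was 7427, 7165 and 6630 on the *Nxt1* arrays, 614, 747 and 450 on the *aly* arrays and 24242, 24729 and 24877 on the control arrays, so that no 2 genotypes overlapped. It was 3.48-fold lower in *Nxt1* testes (log2 difference -1.80, standard error 0.16) and 41.7-fold lower in *aly* testes.

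*CG31639*, close to the limit of the choice, had the highest signal of the 201 in *aly* testes. It gave 7325, 6014 and 5672 in *Nxt1* testes, 1139, 1638 and 1249 in *aly* testes and 21018, 21640 and 21324 in control testes. The log2 difference of *aly* from control was -4.01 (standard error 0.14), and that of *Nxt1* from control -1.76 (standard error 0.14). Its lowest *Nxt1* array still lay above its highest *aly* array.

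The other genes at this level behaved much alike in *Nxt1* testes and less so in *aly* testes. *CG31468*, listed as Tes37 in the reference, gave 7100, 7018 and 6546 in *Nxt1*, 597, 816 and 510 in *aly* and 20992, 22065 and 21012 in control testes. *CG31820* gave 7591, 6999 and 6711 in *Nxt1*, 655, 695 and 440 in *aly* and 21163, 20989 and 20582 in control testes. *CG14926* gave 6130, 6879 and 6008 in *Nxt1*, 843, 939 and 852 in *aly* and 20892, 20767 and 20863 in control testes. These 3 genes were 2.95 to 3.29-fold lower in *Nxt1* testes and 23.8 to 35.7-fold lower in *aly* testes. *CG3213*, also among the 6 brightest in control testes, was 3.40-fold lower in *Nxt1* and 72.0-fold lower in *aly* testes, where it gave 414, 282 and 185.

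**Figure D4:**
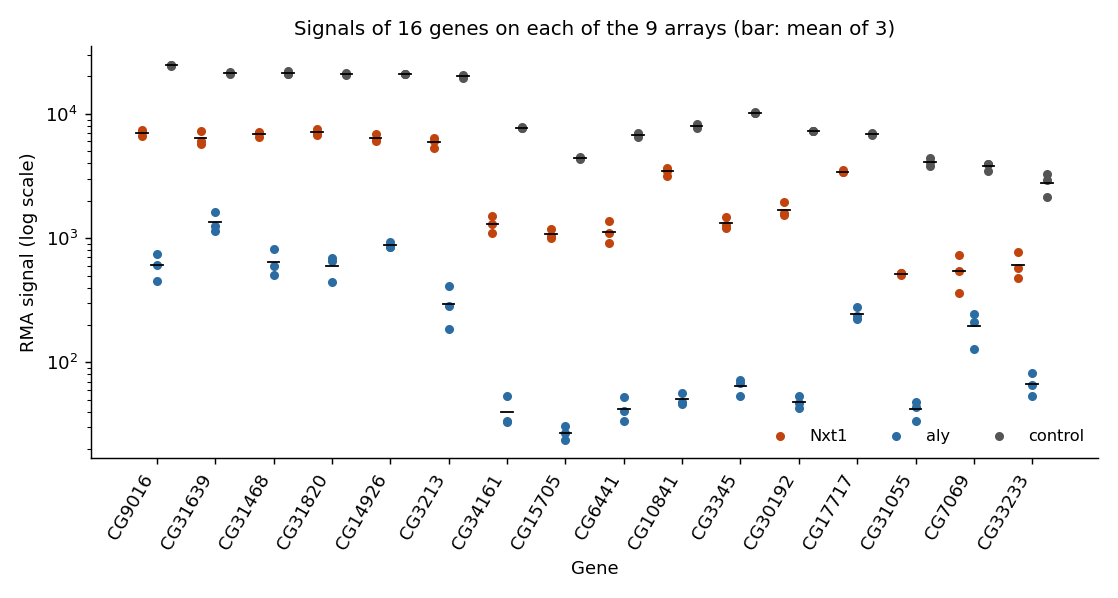
RMA signal (log axis) of 16 of the 201 genes on each *Nxt1*, *aly* and control array, with the mean of 3 arrays as a bar: the 6 brightest in control testes, the 6 with the largest fall in *aly* testes, 1 gene at each *Nxt1* limit and 2 genes with a wide spread over *Nxt1* arrays. *Nxt1* points lie between *aly* and control points for each of the 16 genes.

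The largest fall in *aly* testes was that of *CG34161*. Its signal was 1507, 1290 and 1097 in *Nxt1* testes, 33.4, 53.7 and 33.7 in *aly* testes and 7836, 7723 and 7708 in control testes. It was 198-fold lower in *aly* testes (log2 difference -7.63, standard error 0.18) and 6.02-fold lower in *Nxt1* testes (-2.59, standard error 0.18). Its *aly* signals were near those of a probe set dim in all 3 genotypes, with means of 30.7 to 36.8 (a probe set of *CG30460* that the choice did not use). A fall to such a level can be no larger than the control signal allows, so ranks by this fold partly follow brightness.

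*CG10841* combined a deep fall in *aly* testes with a shallow one in *Nxt1* testes. It gave 3695, 3493 and 3136 in *Nxt1*, 56.5, 46.4 and 48.5 in *aly* and 8118, 7701 and 8249 in control testes. The gap between the mutants was the widest among the 201 genes, with a log2 difference of *Nxt1* from *aly* of 6.09 (68.3-fold), while *Nxt1* testes were 2.34-fold below control.

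*CG12069*, listed as Pka-like in the reference, was close to it, with 3094, 3018 and 2953 in *Nxt1*, 48.6, 49.0 and 38.0 in *aly* and 6472, 6694 and 6513 in control testes. It was 2.17-fold lower in *Nxt1* and 146-fold lower in *aly* testes. The remaining genes with the largest falls in *aly* testes were *CG15705*, *CG6441*, *CG3345* and *CG30192*, which were 153 to 163-fold lower there. Their falls in *Nxt1* testes spread over the window: *CG15705* was 4.14-fold, *CG30192* 4.34-fold, *CG6441* 6.10-fold and *CG3345* 7.76-fold lower than control.

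At the other end, the narrowest gap between the mutants belonged to *CG7069*, with 735, 362 and 548 in *Nxt1*, 244, 129 and 213 in *aly* and 3940, 3480 and 3923 in control testes. *Nxt1* testes were 2.79-fold above *aly* testes (log2 difference 1.48) and 7.17-fold below control (log2 difference -2.84, standard error 0.28). Its second array was the lowest of the 3 in every genotype, and it had the widest spread over *Nxt1* arrays among the 201 genes. *CG10734*, with 3762, 2557 and 2223 in *Nxt1* testes, *CG33489*, with 673, 568 and 428, and *CG33233*, with 771, 572 and 475, also spread widely over the *Nxt1* arrays, and in each of these the first array was the highest.

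The dimmest genes in *Nxt1* testes were still above their *aly* signal on every array. *CG12206* gave 122, 155 and 155 in *Nxt1*, 40.0, 35.8 and 37.1 in *aly* and 729, 596 and 800 in control testes, a 4.90-fold fall in *Nxt1* and an 18.7-fold fall in *aly* testes. *CG31213* gave 179, 181 and 182 in *Nxt1*, 58.5, 40.1 and 54.9 in *aly* and 1346, 1224 and 1234 in control testes, and so lay in the deep part of the window at 7.01-fold lower. *CG15909*, *CG17580*, *CG15143* and *CG14693*, the other dim genes, were 3.26 to 7.44-fold lower in *Nxt1* testes. *CG12206* and *CG33233* were also among the genes with the widest spread over control arrays, with *CG4744* and *CG13330*, and for all 4 every *Nxt1* array was still below every control array.

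A reference annotation gives 21 of the 201 genes another name, and what is known of some of these families is background here. *CG3473*, listed as Ube2N, a ubiquitin-conjugating enzyme, gave 1227, 1152 and 1119 in *Nxt1*, 65.1, 88.8 and 43.2 in *aly* and 5439, 5341 and 5625 in control testes, 4.69-fold lower in *Nxt1* and 86.8-fold lower in *aly*. *CG2574*, listed as Ube2E2, another such enzyme, gave 2567, 2640 and 2506 in *Nxt1*, 241, 330 and 271 in *aly* and 7116, 7447 and 6592 in control testes, 2.74-fold lower in *Nxt1* and 25.3-fold lower in *aly*. *CG15800*, listed as SkpG, of the family of adaptors of SCF ubiquitin ligases, was 7.31-fold lower in *Nxt1* testes, at 709, 692 and 663 against 5093, 5188 and 4808 in control testes. The 3 genes thus lay in different parts of the window.

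Other names with a known family followed. *CG10365*, listed as Chac1, of a family that breaks down glutathione, gave 2800, 2931 and 2770 in *Nxt1*, 306, 343 and 320 in *aly* and 12127, 12220 and 11515 in control testes, a 4.22-fold fall in *Nxt1*. *CG9389*, listed as IMP, of the inositol monophosphatase family, had some of the highest signals in *Nxt1* testes, with 5988, 6098 and 5683, against 13277, 13085 and 13494 in control testes (2.24-fold lower). *CG12479*, listed as Minos1a, related to a subunit of the complex that shapes the mitochondrial inner membrane, gave 786, 768 and 685 in *Nxt1*, 169, 276 and 243 in *aly* and 4690, 4644 and 4842 in control testes. Its fall in *Nxt1* was 6.34-fold, and *Nxt1* exceeded *aly* by 3.32-fold, near the low end of the 201.

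*CG7794*, listed as Tub1B, of the tubulin family of microtubule proteins, gave 2984, 2663 and 2702 in *Nxt1*, 368, 382 and 355 in *aly* and 6886, 6797 and 6899 in control testes. It was 2.47-fold lower in *Nxt1* and 18.6-fold lower in *aly*, where it kept more signal than most. *CG14297*, listed as LMW-PTP, of the low molecular weight tyrosine phosphatases, gave 3693, 3414 and 2735 in *Nxt1*, 269, 218 and 202 in *aly* and 8654, 9288 and 8208 in control testes. *CG14740* (CS), *CG17237* (ELC4), *CG9550* (d6ST2), *CG9406* (CBP5) and *CG15468* (SIP3) were 2.10 to 4.87-fold lower in *Nxt1* testes and 41.3 to 77.5-fold lower in *aly* testes.

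Chosen after their values were seen, *CG32006*, listed as FoxJ1, and *CG31600*, listed as Tsp40A, belong to families with a textbook role. FoxJ1 is a transcription factor of motile cilia genes in vertebrates, and tetraspanins such as Tsp40A are membrane proteins. *CG32006* averaged 387 in *Nxt1* testes and *CG31600* averaged 509. The other 4 with a reference name, also named after their values were seen, were *CG11703* (JYbeta2), *CG18223* (SPH200), *CG15450* (GPAT) and *CG8673* (GalT5), which were 2.49 to 7.75-fold lower in *Nxt1* testes. For the rest of the 201 genes no other name was found in the reference, and no role is given.

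Second probe sets, which the choice did not use, were found for 9 of the 201 genes, 10 in all. They carry the same gene symbol and were read on the same arrays, so they are a check of the probe sets and not of the animals. Whether the probe sets of a gene measure the same RNA was not tested. Of the 10, 3 fell in the same window, for *CG10508*, *CG12983* and *CG6262*. The *CG12983* probe set gave 798, 667 and 682 in *Nxt1*, 47.4, 49.9 and 28.4 in *aly* and 3315, 3311 and 2330 in control testes, a 4.13-fold fall in *Nxt1*.

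Of the 7 outside the window, 3 were dim in control testes, below the median of all probe sets, for *CG30460*, *CG33233* and *CG8086*. The dim *CG30460* probe set averaged 32.1 ± 1.20 in *Nxt1*, 36.8 ± 3.58 in *aly* and 30.7 ± 1.05 in control testes (SD, n = 3 each), where the chosen probe set gave 6469, 6127 and 6452 in control testes. It thus stayed dim in all 3 genotypes.

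The other 4 had signal in control testes and placed the gene elsewhere. For *CG10089* the second probe set gave 58.0, 79.2 and 83.3 in *Nxt1*, 77.3, 66.1 and 80.5 in *aly* and 450, 463 and 406 in control testes, so that the mutants overlapped, whereas its chosen probe set gave 2815, 1854 and 2076 in *Nxt1* and 66.1, 121 and 61.6 in *aly* testes. One of the *CG10508* probe sets also gave overlapping signals in the mutants, with 28.3, 35.0 and 37.8 in *Nxt1*, 41.1, 44.2 and 34.1 in *aly* and 957, 1038 and 789 in control testes, although the other 2 probe sets of *CG10508* lay inside the window. For *CG6138* the second probe set crossed the 8-fold limit, with a log2 difference of *Nxt1* from control of -3.17 against -2.94 in the chosen probe set. For *CG42266* it missed the limit on *aly*, with a log2 difference of *aly* from control of -2.76 against -4.95.

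The spread between replicate arrays, which the choice did not use, was smaller than that of other probe sets in control testes and larger in the mutants. The median SD of the log2 signals of the 201 genes was 0.13 in *Nxt1*, 0.25 in *aly* and 0.05 in control testes, and over all probe sets it was 0.09 in *Nxt1*, 0.16 in *aly* and 0.09 in control testes. The choice sets how bright these genes were in each genotype, and they were not compared with probe sets of like brightness. The part of brightness in this spread was not tested.

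The deviations in *Nxt1* testes ran in the same direction in most of the genes. Of the 3 *Nxt1* arrays, the first was the highest for 142 of the 201 genes (70.6%) and the third the lowest for 154 (76.6%), where the shares over all probe sets were 32.4% and 35.7%. The median deviation from the *Nxt1* mean was 0.10, 0.02 and -0.10 on the 3 arrays on the log2 scale. The same 2 shares were 50.8% and 59.4% among the 313 genes with a fall of at least 16-fold in *Nxt1* testes, and 64.2% and 64.2% among the 95 genes less than 2-fold lower, so other genes low in *aly* testes showed this order too. On the *aly* arrays the third was the lowest for 102 genes (50.7%), with 28.4% over all probe sets. That share was 49.5% among the 313 genes, 57.1% among the 119 genes and 63.2% among the 95 genes. On the control arrays no such shift was seen: the medians of the deviations were -5.6e-05, 6.5e-04 and -1.6e-03.

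**Figure D5:**
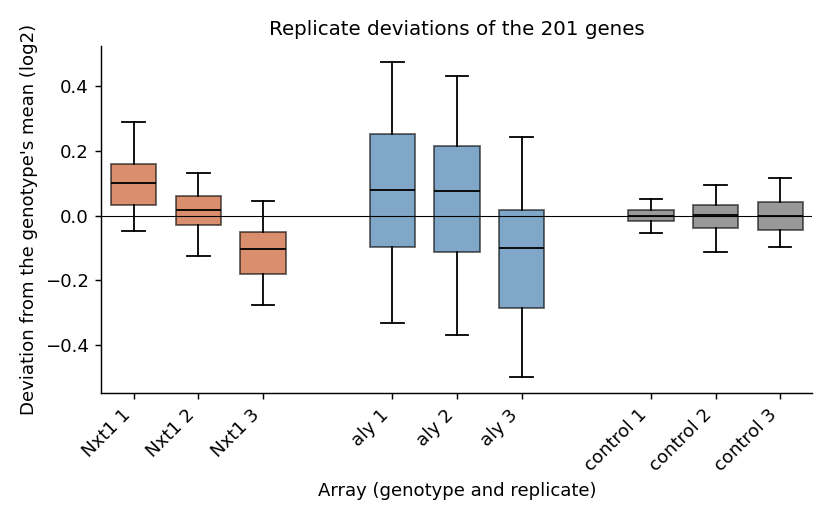
Deviation of each array's log2 signal from the mean of its genotype (y axis) for the 201 genes, by array (x axis) in the order *Nxt1*, *aly* and control, with boxes for quartiles, lines for medians and whiskers for the 5th to 95th percentile. The *Nxt1* medians are 0.10, 0.02 and -0.10, and the control medians lie close to 0.

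Markers of other tissues also moved between the *Nxt1* arrays. Accessory gland transcripts, from a gland next to the testis that dissection can carry over, were summed over 12 genes measured from a list of 13 symbols. The sum was 54964, 104370 and 145635 on the *Nxt1* arrays and 77245, 105399 and 47661 on the *aly* arrays. It was 1256, 25215 and 34638 on the control arrays. In *Nxt1* testes the sum was lowest on the array where the 201 genes were highest. In *aly* testes it was lowest on the third array, where the 201 genes were lowest as well. On the control arrays it ran from 1256 to 34638, while no shift of the 201 genes was seen there. None of the 12 had a mean signal below the median of all probe sets in any genotype. These means hide the first control array, where the median log2 signal of the 12 was 4.86, against 10.92 on the second and 11.59 on the third. The part of these transcripts in the replicate deviations was not tested.

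The other lists put the arrays in the context of the arrest. Spermatid genes, whose transcripts appear after meiosis, summed to 5352 to 5926 in *Nxt1*, 7451 to 7778 in *aly* and 58239 to 59456 in control testes over 9 of 11 listed genes. The order of the mutants turned with the measure, since the median log2 signal of these genes was 8.75 to 9.07 in *Nxt1*, 6.84 to 7.31 in *aly* and 12.55 to 12.60 in control testes. Of these 9, 1 had a mean signal below the median of all probe sets in *Nxt1* testes, 5 in *aly* and 0 in control testes, and 5 were themselves 16-fold or more lower in *aly* testes. Spermatocyte genes summed to 23368 to 23920 in *Nxt1*, 45995 to 47834 in *aly* and 12829 to 13576 in control testes over 9 genes. The 9 were *aly*, *comr*, *tomb*, *topi*, *can*, *sa*, *mia*, *nht* and *CG3927*. All but *CG3927* are counted again in the next paragraph, and *aly* is the gene mutated in *aly* testes. Early germline genes summed to 5434 to 5811 in *Nxt1*, 5657 to 6066 in *aly* and 2655 to 2991 in control testes over 5 of 7 listed. The fat body sum over 5 of 6 genes was 455 to 1390 in *Nxt1*, 5494 to 7183 in *aly* and 343 to 570 in control testes, the muscle sum over 7 of 11 genes was 5703 to 9527 in *Nxt1*, 8148 to 8980 in *aly* and 12910 to 14088 in control testes, and the sum of cyst and hub cell genes over 5 of 6 was 1064 to 1138 in *Nxt1*, 945 to 1093 in *aly* and 1278 to 1301 in control testes. For the muscle genes the order turned too, with a median log2 signal of 9.46 to 9.996 in *Nxt1*, 9.96 to 10.14 in *aly* and 9.30 to 9.48 in control testes. Some of these lists were dim. Of the 5 cyst and hub cell genes, 4 had a mean signal below the median of all probe sets in *Nxt1*, 4 in *aly* and 3 in control testes. Of the 5 fat body genes, 3 lay below it in *Nxt1*, 2 in *aly* and 4 in control testes. The part of these cell types in the falls of the 201 genes was not tested.

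The tMAC genes were measured on the same arrays. Of the 9 tMAC subunits, 7 rose in *Nxt1* testes, 1 fell and 1 did not pass the test (limma, adjusted p under 0.05). The one that fell was *mip40*, with a log2 difference of -0.27, and the median of the 9 was 1.37. In *aly* testes 8 of the 9 rose and *aly* itself fell, and the median was 2.05. Of the 4 measured testis TAFs, paralogues of general transcription factor subunits, 3 rose in *Nxt1* testes and 1 did not pass. In *aly* testes all 4 rose. These counts were not set beside the share of all probe sets that rose. With arrays centred on ribosomal protein probe sets, 4 tMAC subunits rose and 2 fell in *Nxt1* testes, and 3 of the 4 testis TAFs fell. Of these TAFs, *nht* and *sa* turned with the scaling, *mia* fell after not passing, and *can* stayed higher, at 1.05. With arrays centred on *CG3927*, 6 tMAC subunits rose and 2 fell, and 1 TAF rose and 2 fell. In *aly* testes 6 tMAC subunits rose and 2 fell under either centring, and 3 TAFs rose and 1 fell. The signal of *aly* was 365, 385 and 354 in *Nxt1*, 52.8, 50.8 and 57.5 in *aly* and 106, 93.4 and 98.0 in control testes, lowest in the testes labelled *aly*.

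The 201 genes were spread over the chromosome arms. By gene ID 53 lay on 2L (26.4%), 41 on 2R (20.4%), 34 on 3L (16.9%), 50 on 3R (24.9%), 22 on X (10.9%) and 1 on 4. Over all CG genes with a chromosome the shares were 18.5% on 2L and 17.1% on X. Other genes low in *aly* testes had shares of 24.0% on 2L and 10.6% on X (the 313 genes), 20.3% and 16.1% (the 119 genes) and 23.7% and 7.53% (the 95 genes). The median log2 difference of *Nxt1* from control was -2.11 on 2L, -2.06 on 2R, -1.78 on 3L, -2.07 on 3R and -2.29 on X, all well inside the window.

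The place of these genes in the gene order was taken from the reference. Of the 201 genes, 59 (29.4%) were next to a gene, with or without a name, that was at least 16-fold lower in *aly* testes, against 14.9% of all CG genes and 13.1% of all genes. The share was 35.3% among the 313 genes that fell at least 16-fold in *Nxt1*, 28.8% among the 119 genes 8 to 16-fold lower and 33.3% among the 95 genes less than 2-fold lower, so genes outside the window had such neighbours as well. Of the 201, 12 were next to another of the 201, in 6 pairs. Among the 313 genes 59 were next to another of their own group, among the 119 genes 4 and among the 95 genes 6. These counts also depend on the size of each group.

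For the 53 pairs of one of the 201 genes with such a neighbour outside the window, the log2 differences of *Nxt1* from control were a median of 2.13 apart. In the 6 pairs inside the window they were a median of 0.42 apart, where the limits allow no gap of 2 or more. Over all 20100 pairs of the 201 genes, neighbours or not, the median gap was 0.59. The closest of the 6 was *CG30369* with *CG14759*, at -2.87 and -2.89. The signal of *CG30369* was 652, 652 and 691 in *Nxt1*, 92.5, 134 and 90.7 in *aly* and 4927, 4988 and 4715 in control testes. That of *CG14759* was 512, 522 and 490 in *Nxt1*, 37.7, 68.5 and 40.8 in *aly* and 3709, 3822 and 3745 in control testes. In *Nxt1* testes *CG30369* kept 13.6% and *CG14759* 13.5% of the control signal.

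*CG5556* and *CG5561*, also neighbours, were at -2.07 and -1.81, *CG34161* and *CG7329* at -2.59 and -2.27, and *CG15143* and *CG15144* at -2.77 and -2.25. The pair *CG4218* and *CG3473* differed more, at -1.38 and -2.23. *CG14609* and *CG1288* differed most, at -1.32 and -2.63. *CG14609* gave 3157, 3068 and 2430 in *Nxt1*, 266, 168 and 228 in *aly* and 7007, 7009 and 7476 in control testes, and *CG1288* gave 3048, 2909 and 2628 in *Nxt1*, 786, 725 and 574 in *aly* and 17543, 16968 and 18393 in control testes. In *Nxt1* testes the arrays of this pair overlapped, although in control testes the probe sets differed, and signals of different probe sets cannot be set against each other as amounts of RNA.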

How the data were processed

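Testis RNA of *Nxt1*, *aly* and control flies was measured on 9 arrays. Deposited values are linear intensities from the authors' GCOS and RMA processing (background correction, normalisation between arrays and one value per probe set). No version of either program is given, and the genome build is not given in the sources used here. RMA makes the arrays alike in distribution, so a change shared by most transcripts would not be seen, and the number of arrays limits the precision. Here the log2 of each intensity was taken, and 183 control probe sets were left out of 18952. A gene was represented by its brightest probe set with 1 gene symbol. limma 3.58.1 in R 4.3.3 fitted 1 mean per genotype to the 9 arrays (lmFit, then eBayes), with Benjamini-Hochberg adjustment over 18769 probe sets and a threshold of 0.05. A permutation test of 3 arrays against 3 cannot give a p under 0.1 and was not used. On simulated data with changes of log2 size 1 and 2 in *Nxt1* minus control, 94% and 100% of the changed probe sets were recovered among 18769. Python 3.11.15 (pandas 2.3.3, numpy 2.4.6) made the tables, and matplotlib 3.10.9 drew the figures.

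The 201 genes and the lists were chosen with earlier results of these data known. Genes named in the text are those with the 6 highest signals in control, the 6 highest and 6 lowest in *Nxt1* testes, the 6 largest falls in *aly* testes, the 4 just inside and just outside each limit, those with a second probe set outside the window, those next to another of the 201, up to 15 with another reference name, and the 4 with the widest spread over control and over *Nxt1* arrays. The alternatives were 2 centrings, 32 added before the log2, means of intensities, other probe set rules, limits on every array pair, removal of dim probe sets, eBayes with trend and robust, the replicate number as a block, and leaving out each array. All 201 gene IDs matched the reference gene table (assembly Release 6), used for names, arms and gene order. The *rye* and *sbr* genes, gene structure, promoters and protein sequences were not analysed here.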

Additional observations from a re-analysis of the deposited data

How the results depend on the processing

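Which genes belong to the group depends on the scaling. With arrays centred on ribosomal protein probe sets the rule chose 235 genes, of which 80 were among the 201, and with arrays centred on *CG3927* it chose 267, of which 121 were. The centrings lowered the median of *Nxt1* minus control over all probe sets by 1.13 and 0.77 on the log2 scale, and that of *aly* minus control by 1.22 and 1.14. Relative to ribosomal protein genes the median log2 difference of the 201 genes was -3.19 in *Nxt1* and -6.78 in *aly* testes, and 121 of them fell at least 8-fold in *Nxt1*. Relative to *CG3927* these medians were -2.84 and -6.70, and 80 of the 201 fell at least 8-fold. *Nxt1* exceeded *aly* by a median of 3.55 and 3.82 under the centrings.

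Other settings kept most of the 201. Of them, 194 were among 203 genes with 32 added before the log2, 200 among 204 from means of intensities, 194 remained when every probe set of a gene had to meet the rule, 201 were among 203 when any could, and 183 remained when the limits of -4 and -1 had to hold for every pair of arrays. Without each array in turn the rule chose 195 to 206 genes, and 190 to 201 of these were among the 201. All 201 genes were called in each of the 3 comparisons under every refit, and the 62 genes named by the rule kept direction and call in all 2790 refitted values. The choice of the genes by these same differences leads to such counts, so they say nothing of stability.

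The labels number the replicates of each genotype from 1 to 3 without saying that a number is shared, and the deviations of arrays with the same number correlated between -0.23 and 0.35. With the replicate number as a block 201 of 201 genes were called in each comparison, which the choice of the genes also leads to.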
